A study of Mus musculus with 3 samples.

Results

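Short RNA from mouse TAG1 ES cells was compared between cells kept for 16 hrs in SB and cells given the same 16 hrs of SB followed by 12 hrs of Dox, across all 693 listed miRNAs and 2 of the 3 libraries of the study. TAG1 is an ES cell line that carries a tetracycline-inducible Alk4*, a constitutively active form of the type I receptor for Activin and Nodal. SB, labelled SB-431541 and written SB-431542 in the methods, was given at 30 µM and inhibits these receptors, so that Smad2/3 are no longer phosphorylated. Dox, at 1 µg/µl, switches on Alk4*. The medium of both cultures was DMEM with LIF and KSR, a serum substitute, at 20%. The remaining library, 0 hr, came from untreated cells in 20% FBS, a different medium, and its levels are given below only for orientation. Each condition was 1 library pooled from 2 sequencing runs of 1 cell line, so there was no replicate and the spread between cultures is unknown. The Dox cells were also in culture 12 hrs longer, and this time, Dox itself and the induced receptor cannot be told apart in these libraries. Whether SB stayed in the medium during the Dox period, and whether the sequenced cultures held feeder cells, is not given in the sources used here.

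A miRNA is cut from a hairpin whose arms are named 5p and 3p. One arm, the guide, is usually kept in the Argonaute complex while its partner is degraded, and a kept miRNA recognizes mRNAs mainly through its seed, bases 2 to 8. miRNAs that share a seed are grouped as a family. In mouse ES cells the miR-290 to miR-295 cluster is the main source of miRNAs and sustains rapid division, whereas let-7 accumulates upon differentiation, its maturation being held back in ES cells by Lin28. Activated Smad2/3 act as transcription factors for miRNA genes, and Smads can also bind a CAGAC motif in some hairpins and favor their processing by Drosha.

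Mature sequences of the families on which the comparison turned are shown first, 5′ to 3′, with the seed in capitals. They come from RefSeq on GRCm38.p6, which gave a sequence for 543 of the listed miRNAs (516 by the same name and 27 by a later name with the letter a). The hairpins of miR-290 to miR-295 lie together on chromosome 7, with that of miR-290 from 3218626 to 3218708 and that of miR-295 from 3220773 to 3220841 on the + strand, and their arms carry different seeds.
miR-290-5p: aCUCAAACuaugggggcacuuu
miR-292-5p: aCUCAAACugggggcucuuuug
miR-293-5p: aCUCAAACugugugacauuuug
miR-291a-3p: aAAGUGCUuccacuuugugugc
miR-294-3p: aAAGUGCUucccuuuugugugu
miR-295-3p: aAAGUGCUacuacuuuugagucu
miR-302b-3p: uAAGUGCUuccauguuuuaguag
miR-302d-3p: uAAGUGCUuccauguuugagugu
The let-7 members differ from each other by a few bases after the seed, which matters because the read counting asked for perfect matches.
let-7a-5p: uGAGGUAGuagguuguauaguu
let-7b-5p: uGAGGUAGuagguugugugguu
let-7c-5p: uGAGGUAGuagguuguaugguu
let-7f-5p: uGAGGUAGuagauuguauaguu
let-7i-5p: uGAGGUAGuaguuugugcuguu
miR-98-5p: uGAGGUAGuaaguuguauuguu
The miR-181 members also share a seed, but miR-181c-5p and miR-181d-5p were higher after Dox and miR-181a-5p was lower, as described below.
miR-181a-5p: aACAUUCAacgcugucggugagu
miR-181b-5p: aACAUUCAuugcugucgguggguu
miR-181c-5p: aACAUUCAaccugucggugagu
miR-181d-5p: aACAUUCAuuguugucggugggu
The epithelial miR-200 family has seeds that differ at 1 base, and all members shown had higher levels after Dox.
miR-200b-3p: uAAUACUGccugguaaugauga
miR-200c-3p: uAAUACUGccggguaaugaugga
miR-429-3p: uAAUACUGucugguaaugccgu
miR-200a-3p: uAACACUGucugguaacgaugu
miR-141-3p: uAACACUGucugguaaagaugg
For miR-23a and miR-23b the less abundant 5p arms are shown, together with the abundant 3p arm of miR-23a, because only the 5p arms met the criteria given below.
miR-23a-5p: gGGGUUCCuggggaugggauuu
miR-23b-5p: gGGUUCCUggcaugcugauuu
miR-23a-3p: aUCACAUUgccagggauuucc

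Levels are in rpm, which is reads scaled to a library of 1000000. The SB library corresponded to 11354692 reads and the SB + Dox library to 9895513, of which 24.1% (95% exact interval, 24.10 to 24.15) and 33.4% (33.35 to 33.41) were on listed miRNAs. Totals and shares were worked out from the steps of the rpm values. Both totals are below the numbers of sequenced reads that the study gives, so which reads form the denominator of rpm is not known, and the shares are of that denominator. These intervals, like all that follow, cover counting error only, and the reads are PCR products without molecular identifiers. A miRNA is called higher after Dox when its rpm was at least 25% above that of the SB library with a Z-score outside the central 95% of the normal distribution, and lower when SB exceeded SB + Dox by the same measure. The Z-score compares the reads of the libraries and not the conditions. By these criteria 289 miRNAs (41.7% of those listed) were higher and 17.9% were lower. With a fold of at least 2, 154 (22.2%) were higher and 67 (9.67%) were lower. The log2 ratio of SB + Dox over SB ran from −6.09 to 4.87 with quartiles of −0.36 and 0.96. Its median over all listed miRNAs was 0.38, and it moved to −0.090 with the reads on listed miRNAs as library totals, to 0.044 with TMM, to 0.065 with quantile normalization and to 0 by construction with the median of ratios. A general shift of this size is therefore part of every ratio in rpm given below. When the criteria had to be met under all 5 scalings, 160 miRNAs (23.1%) were higher and again 17.9% were lower. Each of the other scalings lowered the median ratio. A lower call in rpm was therefore hardly at risk under them, and only higher calls could readily be lost. Scaled to listed miRNA reads alone, 163 (23.5%) were higher and 218 (31.5%) lower, so the larger number of higher miRNAs did not hold under that scaling. With TMM 28.7% were higher and 27.8% were lower.

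**Figure D1:**
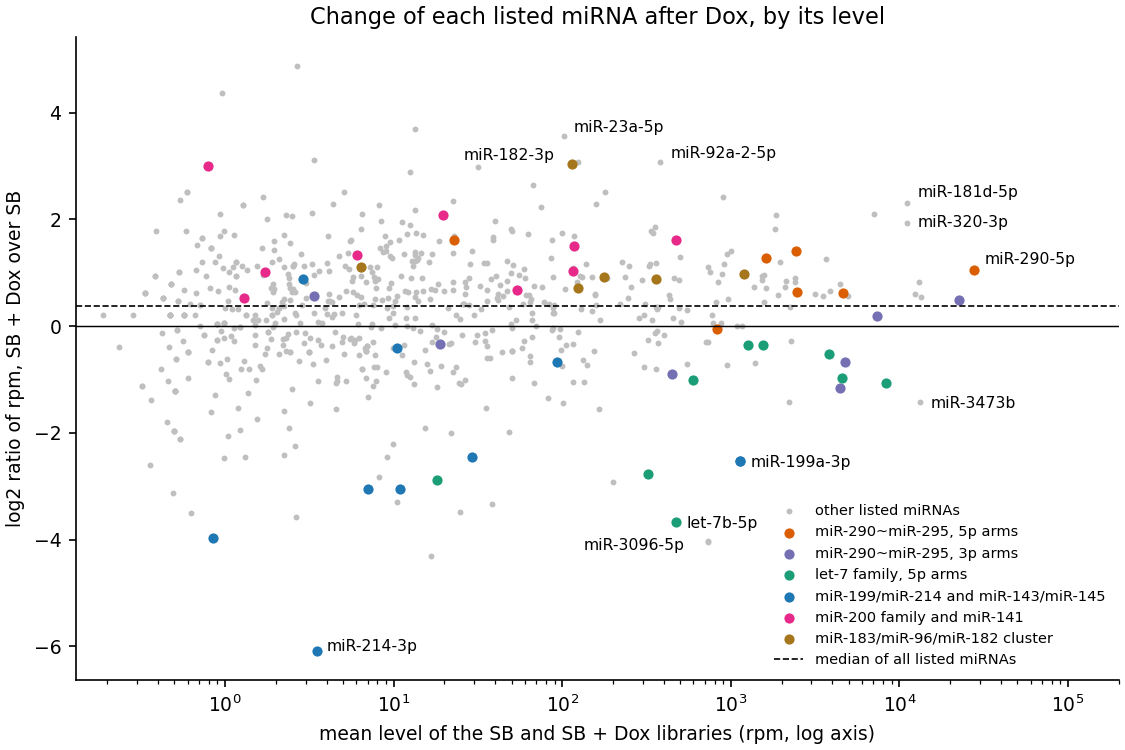
Log2 ratio of rpm, SB + Dox over SB, of each of the 693 listed miRNAs (points) against its mean level in these libraries (rpm, log axis), with families in color and the median of all listed miRNAs, 0.38, as a dashed line. The let-7 points all lie below 0 and the miR-200 points all lie above it, while the miR-290 to miR-295 cluster is split between its 5p and 3p arms.

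Among the 50 miRNAs with a mean of at least 1000 rpm, 34 were higher after Dox, 12 were lower and 4 met neither criterion. The order of the most abundant miRNAs changed. The miRNA with the highest level in the SB library was miR-3473b, with 19386 rpm, and it stood at rank 10 in the SB + Dox library with 7230 rpm. miR-181d-5p went from rank 15 to rank 3, and miR-320-3p from rank 12, with 4644 rpm, to rank 4, with 17683 rpm. The rise of miR-320-3p did not reach the fold threshold in the study's qPCR, as described below. let-7f-5p, at rank 4 in the SB library with 11217 rpm, was at rank 14 with 5331 rpm. miR-140-3p, the more abundant arm of a hairpin within Wwp2, had 9405 rpm and 16761 rpm. miR-103-3p, which lies in introns of Pank genes and is linked to lipid and insulin metabolism, had 10879 rpm and 15919 rpm, a log2 ratio of 0.55 that was near the overall median and turned to −0.10 under quantile normalization. For miR-26a-5p, which the study used as its qPCR reference, the levels were 766 rpm and 798 rpm, a log2 ratio of 0.06 (0.01 to 0.10). It met neither criterion in rpm, but was called lower with listed miRNA reads as library totals. Its relative miR-26b-5p, with the same seed, had 467 rpm and 1002 rpm, a log2 ratio of 1.10 (1.05 to 1.15).

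The arms of the miR-290 to miR-295 cluster differed in direction. Of its 7 listed 5p arms 6 were higher after Dox, 4 of them under all 5 scalings, and none was lower, with a median log2 ratio of 1.05. Of its 7 listed 3p arms 1 was higher and 4 were lower, with a median of −0.33. Over all listed miRNAs 41.7% were higher and 17.9% were lower. miR-290-5p, the most abundant 5p arm, had 18094 rpm after SB and 37406 rpm after SB + Dox, 2.07-fold higher. miR-292-5p had 1345 rpm and 3553 rpm, and miR-295-5p had 947 rpm and 2296 rpm. miR-294-5p was the exception among the abundant 5p arms, with 842 rpm and 809 rpm. On the 3p side, miR-292-3p had 6146 rpm and 2740 rpm, 2.24-fold lower, and miR-294-3p had 5839 rpm and 3682 rpm. miR-293-3p, the most abundant 3p arm, was called higher, with 18792 rpm and 26448 rpm, but not under all 5 scalings. In sum the 5p arms made up 11.1% (11.09 to 11.16) of the listed miRNA reads after SB and 15.8% (15.75 to 15.83) after SB + Dox. The share of the 3p arms was 15.9% (15.83 to 15.91) and 12.3% (12.27 to 12.34).

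Grouping by seed crosses the borders of clusters. The AAGUGCU seed, that of the miRNAs that promote the fast ES cell cycle, was found in miR-291a-3p, miR-294-3p, miR-295-3p, miR-302b-3p and miR-302d-3p. Of these 4 were lower after Dox, against 17.9% over all listed miRNAs, and none was higher, against 41.7%. Seeds were read only where RefSeq gave a sequence. Listed miRNAs without one, such as miR-302a-3p and miR-292-3p, are therefore not in the counts by seed. miR-302b-3p had 18.1 rpm and 8.49 rpm and miR-302d-3p had 32.8 rpm and 15.8 rpm, and their hairpins lie in a different cluster on chromosome 3. miR-295-3p, with 6906 rpm and 7866 rpm, met neither criterion. The CUCAAAC seed of miR-290-5p, miR-292-5p and miR-293-5p was in contrast higher in all 3 miRNAs, with levels summed to 23100 rpm and 46551 rpm. For the AAAGUGC seed of miR-17-5p and its relatives in the clusters of miR-17, miR-106a and miR-106b, 2 of 6 were higher and 1 was lower, with a median of −0.16. Over all listed miRNAs 41.7% were higher and 17.9% lower, and with so few miRNAs the counts are no result about this seed. The clusters of miR-17, miR-106a and miR-106b promote proliferation. miR-17-5p itself had 137 rpm and 180 rpm, a log2 ratio of 0.40 that turned to −0.070 with listed miRNA reads as library totals.

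**Figure D2:**
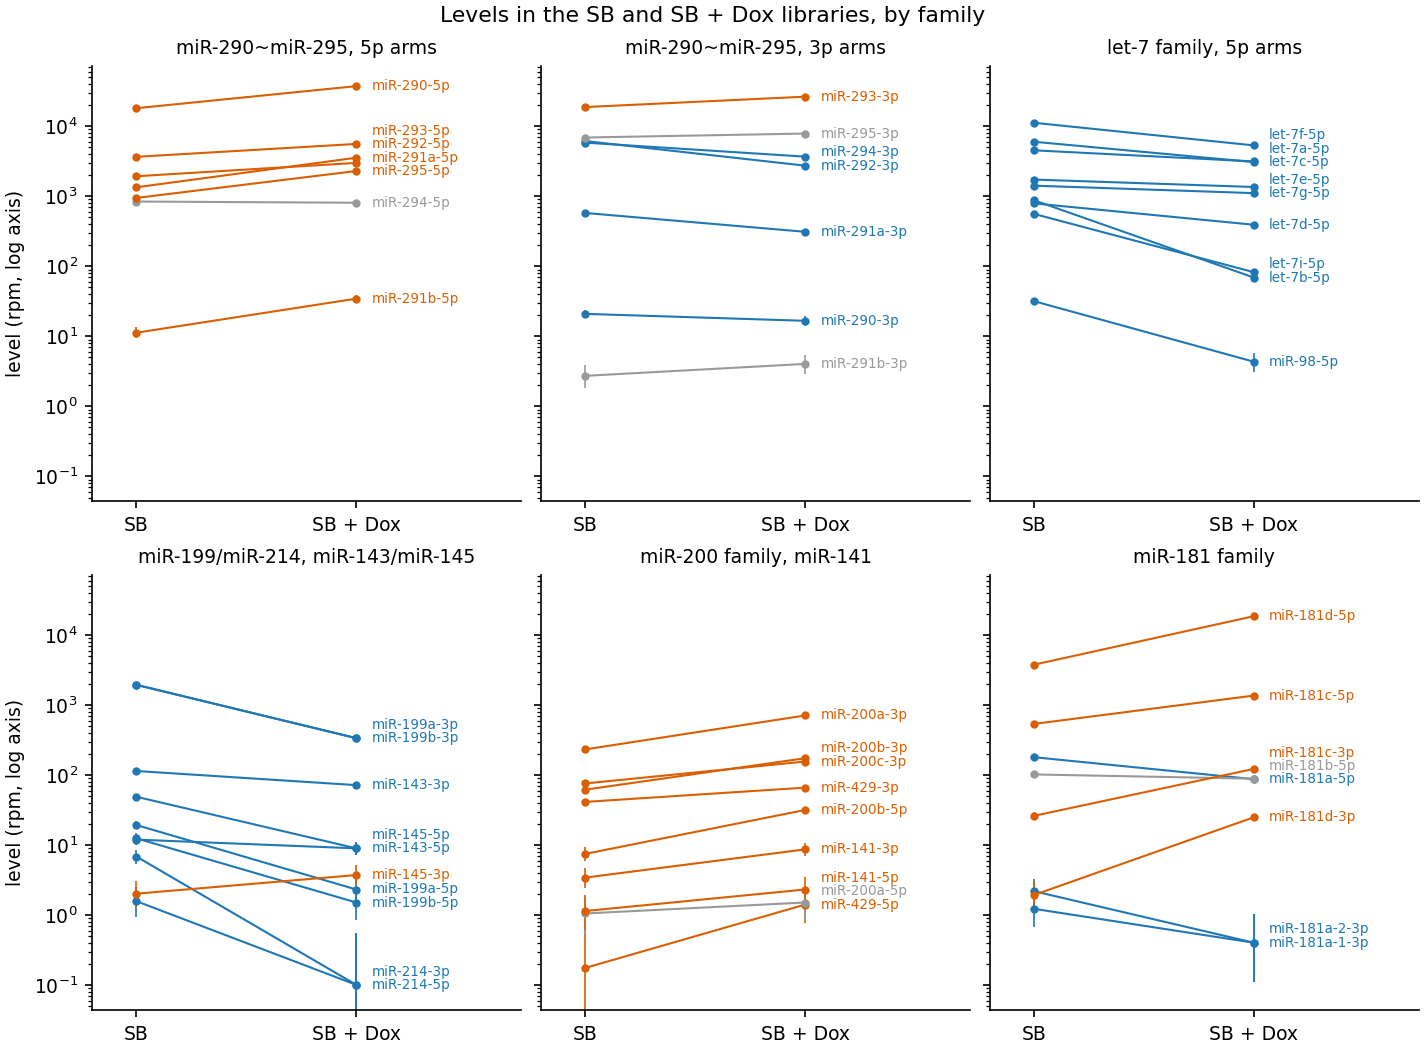
Levels (rpm, log axis) of each listed member of 6 families in the SB and SB + Dox libraries, with 95% Poisson intervals as bars, in orange where higher after Dox, in blue where lower and in grey where neither. Lines rise in the miR-200 panel and for most miR-290 to miR-295 5p arms, fall in the let-7 panel, and cross in the miR-181 panel.

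All 9 listed 5p arms of the let-7 family were lower after Dox, against 17.9% over all listed miRNAs. By 2-fold or more 5 were lower, against 9.67%, and the median log2 ratio was −1.01. The 9 calls held under all 5 scalings, but a lower call in rpm was hardly at risk under the others. The size of the difference varied between members. let-7b-5p had 880 rpm after SB and 69.2 rpm after SB + Dox, 12.7-fold lower. let-7i-5p had 561 rpm and 82.5 rpm, and miR-98-5p had 31.9 rpm and 4.35 rpm. The more abundant members differed less, with 11217 rpm and 5331 rpm for let-7f-5p, 6012 rpm and 3077 rpm for let-7c-5p and 4534 rpm and 3148 rpm for let-7a-5p. The smallest differences were those of let-7e-5p, with 1734 rpm and 1357 rpm, and let-7g-5p, with 1419 rpm and 1110 rpm. As a share of the listed miRNA reads the family went from 11.3% (11.23 to 11.30) to 4.37% (4.34 to 4.39). At 0 hr its levels summed to 14916 rpm, against 27181 rpm after SB and 14572 rpm after SB + Dox.

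The clusters that join let-7 to miR-99/miR-100 and miR-125 did not move together. On chromosome 17 the hairpins of miR-99b, let-7e and miR-125a are neighbours, with that of let-7e from 17830352 to 17830444 within Spaca6. Their log2 ratios were 0.14 (0.07 to 0.22) for miR-99b-5p, −0.35 (−0.38 to −0.32) for let-7e-5p and 0.92 (0.81 to 1.03) for miR-125a-5p. The related loci on chromosomes 16 and 9 hold miR-99a, from 77598936 to 77599000 within an intron of Mir99ahg, and miR-100, from 41531425 to 41531504. miR-99a-5p had 31.9 rpm after SB and 1.62 rpm after SB + Dox, 19.7-fold lower, and miR-100-5p had 18.9 rpm and 1.92 rpm. miR-125b-5p, which has copies at both of these loci, had 352 rpm and 46.5 rpm, a log2 ratio of −2.92 (−3.06 to −2.78). Thus the 5p arms from chromosome 17 had log2 ratios between −0.35 and 0.92, and miR-99a-5p, miR-100-5p and miR-125b-5p of the other loci had ratios of −2.92 or lower. let-7c-5p and let-7a-5p, which are also encoded there and have further copies, had −0.97 and −0.53.

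Several lists of miRNAs abundant in mesenchymal cells were lower in most members, but not all, whereas over all listed miRNAs 17.9% were lower and 41.7% higher. Of 10 listed members of miR-199/miR-214 and miR-143/miR-145, which are typical of fibroblasts and smooth muscle, 9 were lower after Dox. By 2-fold or more 7 were lower, against 9.67% over all listed, and the median was −2.53. The entries miR-199a-3p and miR-199b-3p share the same reads and had 1943 rpm and 337 rpm, 5.77-fold lower. miR-145-5p had 49.1 rpm and 8.99 rpm. miR-214-3p had 6.87 rpm after SB and 0.101 rpm, a single read, after SB + Dox, with an interval of the log2 ratio from −11.41 to −3.57. The exception was miR-145-3p, with 2.03 rpm and 3.74 rpm, whose call did not hold under all 5 scalings. In the miR-29 family, which targets collagens and other matrix genes, 4 of 5 were lower and none was higher, and miR-29a-3p had 3212 rpm and 1206 rpm. Of 7 listed members of miR-10 and miR-196, encoded within Hox clusters, 5 were lower and 1 was higher, and miR-10a-5p had 77.5 rpm and 19.5 rpm. miR-31-5p had 246 rpm and 84.0 rpm. miR-21-5p, another miRNA abundant in fibroblasts, had 2486 rpm and 2041 rpm. It met neither criterion in rpm, but was called lower with listed miRNA reads as library totals. Its other arm miR-21-3p was called higher, with 13.6 rpm and 21.7 rpm, but not under all 5 scalings. Of 4 listed arms of miR-221/miR-222 only miR-221-3p was lower in rpm, with 1720 rpm and 1071 rpm, none by 2-fold, and the median was −0.29. With listed miRNA reads as library totals 3 of the 4 were lower, against 31.5% over all listed, and the median was −0.76.

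A list of 21 miRNAs known from fibroblasts, the usual feeder cells, was used to check the cell type and overlaps the families above (let-7b-5p, let-7i-5p, miR-125b-5p and miR-29a-3p are among its members). Of these 18 were lower after Dox, against 17.9% over all listed miRNAs, and none was higher. By 2-fold or more 15 were lower, against 9.67%, and the median was −2.53. With listed miRNA reads as library totals all 21 were lower, against 31.5% over all listed. The levels of the 21 summed to 4618 rpm at 0 hr, 11186 rpm after SB and 4814 rpm after SB + Dox. No member was listed at 0, and among the defining members miR-214-3p and miR-214-5p were at 0.101 rpm, 1 read each, after SB + Dox. The part of these miRNAs in the lower levels of let-7, miR-29 and miR-199/miR-214 was not tested, and in bulk RNA fewer cells of a type cannot be told apart from less of a miRNA per cell. The 9 ES cell markers summed to 56413 rpm after SB and 78483 rpm after SB + Dox, or 23.4% (23.33 to 23.43) and 23.5% (23.47 to 23.56) of the listed miRNA reads. Among them 2 were higher, miR-290-5p and miR-293-3p, the most abundant of the 9, against 41.7% over all listed. The calls of 6 were lower, against 17.9% over all listed, 3 of them by 2-fold or more, and the median log2 ratio was −0.67. Of 7 listed markers of liver, neurons, muscle and blood 3 were higher and 2 were lower, against 41.7% and 17.9% over all listed, and with so few markers the counts are no result about them. The muscle miRNA miR-206-3p had 45.4 rpm after SB and 4.04 rpm after SB + Dox, close to its 4.02 rpm at 0 hr.

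**Figure D3:**
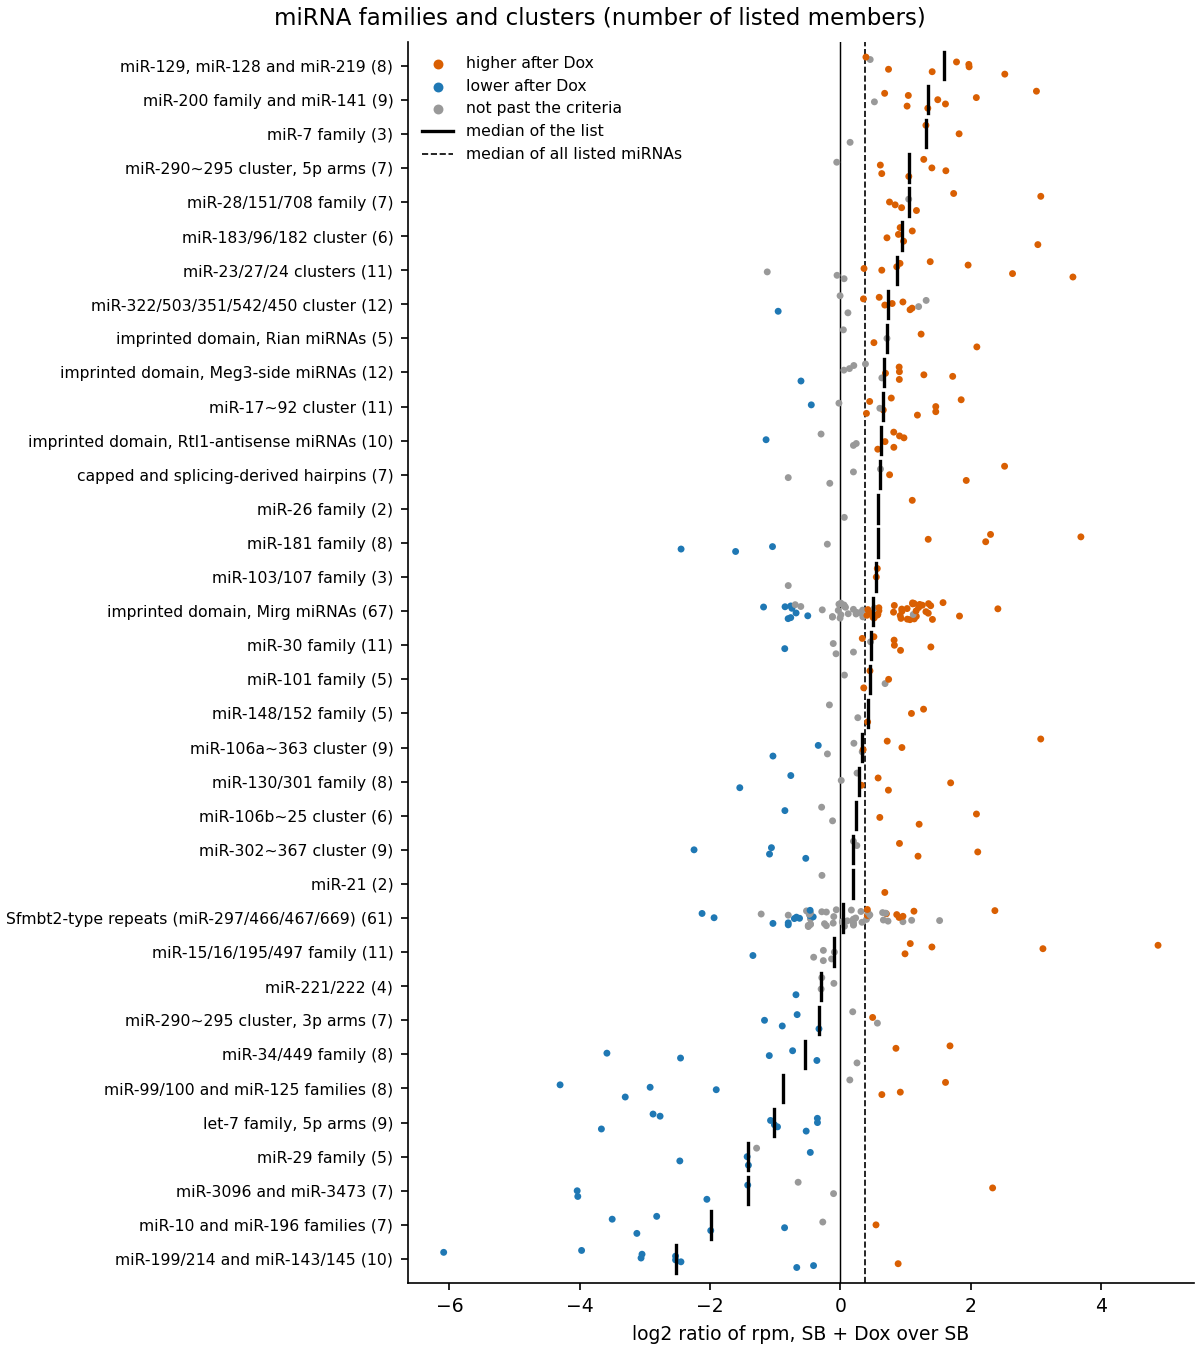
Log2 ratio of rpm, SB + Dox over SB, of the listed members (points) of each family, cluster or other list, ordered by the median of the list (black bar), with the number of members in parentheses and the median of all listed miRNAs as a dashed line. The medians run from −2.53 for miR-199/miR-214 and miR-143/miR-145 to 1.59 for miR-129, miR-128 and miR-219, and several families hold members on both sides of 0.

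Most listed epithelial miRNAs were higher after Dox, against 41.7% over all listed miRNAs. Of 9 listed members of the miR-200 family and miR-141, which repress Zeb transcription factors, 8 were higher and none was lower, 6 of them under all 5 scalings, with a median log2 ratio of 1.34. miR-200a-3p had 232 rpm after SB and 709 rpm after SB + Dox. miR-200b-3p had 61.8 rpm and 174 rpm, and miR-200c-3p, from a different chromosome, had 75.9 rpm and 156 rpm. The hairpins of miR-200a and miR-200b lie on chromosome 4 within introns of Ttll10, the former from 156054896 to 156054985, and that of miR-200c lies on chromosome 6 from 124718322 to 124718390. The miR-183/miR-96/miR-182 cluster, best known from sensory epithelia, had all of its 6 listed arms higher, 5 under all 5 scalings. Its guides moved by similar amounts, with log2 ratios of 0.97 (0.93 to 1.01) for miR-182-5p, 0.89 (0.82 to 0.96) for miR-183-5p and 0.92 (0.82 to 1.01) for miR-96-5p.

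The miR-181 family was divided by locus. miR-181d-5p, whose hairpin lies within an intron of Nanos3 on chromosome 8 from 84178716 to 84178787, had 3763 rpm and 18552 rpm, 4.93-fold higher. miR-181c-5p, from the same chromosome and strand, had 537 rpm and 1365 rpm. miR-181a-5p, from other chromosomes, had 180 rpm and 87.4 rpm, and miR-181b-5p had 102 rpm and 88.8 rpm. miR-181b-5p met neither criterion in rpm, but was called lower with listed miRNA reads as library totals. The passenger arms followed the loci, with log2 ratios of 3.69 (3.06 to 4.39) for miR-181d-3p and 2.23 (2.04 to 2.42) for miR-181c-3p, and with both listed miR-181a passenger arms lower. In sum the family held 1.91% (1.90 to 1.93) of the listed miRNA reads after SB and 6.06% (6.04 to 6.09) after SB + Dox. The levels of the 0 hr library summed to 11096 rpm, between the 4614 rpm of SB and the 20242 rpm of SB + Dox.

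Members of a family from different loci also went apart in the miR-15/miR-16 and miR-34/miR-449 families, which share the AGCAGCA and the GGCAGUG seed and restrain the cell cycle. miR-15b-5p, within an intron of Smc4 on chromosome 3, had 118 rpm and 46.7 rpm, and miR-16-5p had 353 rpm and 294.4 rpm. miR-497-5p and miR-195-5p, whose hairpins lie on chromosome 11 from 70234717 to 70234800 and from 70235042 to 70235135, had 38.3 rpm and 80.4 rpm and 4.93 rpm and 13.0 rpm. The p53-induced miR-34c-5p had 1179 rpm and 709 rpm, and miR-34b-5p had 34.3 rpm and 16.1 rpm. miR-449c-5p, within an intron of Cdc20b, had 4.23 rpm and 13.5 rpm. For all of these loci except that of miR-16-5p, the calls held under all 5 scalings. miR-16-5p met neither criterion in rpm, but its log2 ratio of −0.26 was −0.73 with listed miRNA reads as library totals.

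In 2 further lists most members were higher, against 41.7% over all listed miRNAs. The list of miR-129, miR-128 and miR-219 joins miRNAs of unlike seeds that are enriched in neural tissue and is not a family. Of its 8 members 7 were higher, 5 of them under all 5 scalings, and miR-128-3p had 547 rpm and 1450 rpm. In the miR-28/miR-151/miR-708 family 6 of 7 were higher, 5 of them under all 5 scalings, and miR-708-5p had 160 rpm and 533 rpm. miR-7a-5p, processed in part from an intron of Hnrnpk, had 802 rpm and 2832 rpm. Among 7 listed miRNAs made without Drosha, from capped transcripts or spliced introns, 3 were higher, a share near that over all listed, 2 of them under all 5 scalings. Of these, miR-320-3p was 3.81-fold higher and miR-877-5p, the intron end of Abcf1 on chromosome 17 from 35960730 to 35960814, had 53.4 rpm and 305 rpm. In the study's qPCR of the same total RNA, however, the rise of miR-320-3p did not reach the fold threshold of the calls. miR-484 had 50.9 rpm and 85.8 rpm, and the other 4 met neither criterion.

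The lowest log2 ratios among miRNAs with at least 100 rpm in either library were those of miR-3096b-5p and miR-3096-5p, which differ by few reads and may share them. They had 1386 rpm and 1382 rpm after SB and 84.3 rpm and 84.6 rpm after SB + Dox, log2 ratios of −4.04 (−4.14 to −3.94) and −4.03 (−4.13 to −3.93), against 174 rpm and 173 rpm at 0 hr. miR-3473b was 2.68-fold lower, and held 220119 reads in the SB library. Together with the less abundant members, miR-3096 and miR-3473 made up 9.19% (9.15 to 9.22) of the listed miRNA reads after SB and 2.23% (2.21 to 2.24) after SB + Dox. miR-3473 went the other way, with 7.40 rpm and 37.3 rpm.

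Arms of the same hairpin come from the same transcript, and the difference between their log2 ratios is the same under any scaling that multiplies a library by 1 factor. Quantile normalization does change it, and counts of unequal arms were not made under it. In 71 hairpins both arms had at least 100 reads in each library. In 48 of them (67.6%) the arms differed by more than 3 counting errors, with the 5p arm rising more in 30 and the 3p arm in 18. Both arms were higher in 30 hairpins and both were lower in 3, and in 9 hairpins one arm was called higher and the other lower. The less abundant arm had the higher ratio in 28 of the 48 and the more abundant arm in 20. Without hairpins whose arms match several loci, 41 of 62 were unequal.

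The largest difference in favor of the 5p arm was in miR-23a. miR-23a-5p had 15.9 rpm after SB and 188 rpm after SB + Dox, whereas miR-23a-3p had 862 rpm and 895 rpm, a difference of 3.51 ± 0.12 (counting error) on the log2 scale. Its paralog on chromosome 13 behaved alike, with 18.5 rpm and 115 rpm for miR-23b-5p and 99.2 rpm and 95.6 rpm for miR-23b-3p. In miR-292 the more abundant arm changed from 3p to 5p, with 17.95% (17.70 to 18.21) of the reads of the hairpin on the 5p arm after SB and 56.5% (56.07 to 56.85) after SB + Dox. The same change took place in miR-23b, from 15.7% (13.81 to 17.78) to 54.65% (52.48 to 56.80).

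In several hairpins that give the AUUGCAC seed the arms differed in size of change. The less abundant 5p arm rose more than the guide in miR-25, with log2 ratios of 2.09 (2.05 to 2.12) for miR-25-5p and 0.60 (0.59 to 0.61) for miR-25-3p, the latter −0.080 under quantile normalization. miR-92a-2-5p had 80.6 rpm and 677 rpm and miR-92a-1-5p had 154 rpm and 555 rpm, against 3248 rpm and 5573 rpm for their shared guide miR-92a-3p. miR-92b-5p had 54.0 rpm and 264 rpm and its guide miR-92b-3p, named after its values were seen, had 150 rpm and 518 rpm. In miR-363 of the same seed, where the 5p arm is the more abundant, miR-363-5p had 1225 rpm and 2013 rpm and miR-363-3p had 282 rpm and 325 rpm. miR-25 lies within Mcm7 on chromosome 5 from 138165321 to 138165404, miR-92a-1 within Mir17hg on chromosome 14 from 115044427 to 115044506, and the others on chromosomes X and 3.

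In the opposite direction the largest difference was in miR-182, with 24.9 rpm and 203 rpm for miR-182-3p and 812 rpm and 1588 rpm for miR-182-5p, a difference of −2.06 ± 0.094 (counting error) for 5p minus 3p. miR-708-3p had 26.4 rpm and 222 rpm. In miR-485 the more abundant arm changed from 5p, with 63.6% (62.60 to 64.62) of the reads of the hairpin after SB, to 3p, with 40.0% (39.37 to 40.59) left on 5p. miR-99b-3p rose from 19.02 rpm to 58.1 rpm, while miR-99b-5p met neither criterion. miR-106b, miR-219-1, miR-299 and miR-431 had 5p minus 3p differences between −1.82 and −1.28. In miR-299 and miR-431 the arms were called in opposite directions in rpm, and such calls depend on the scaling.

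**Figure D4:**
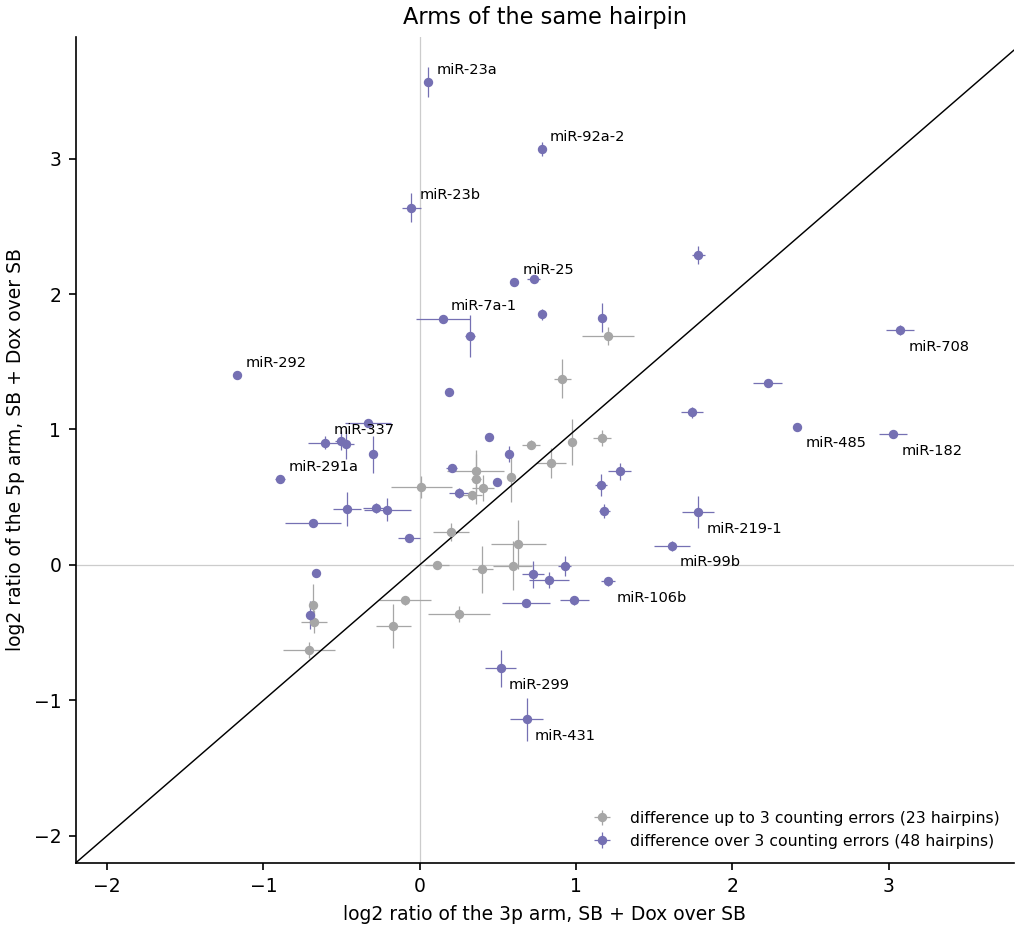
Log2 ratio of the 5p arm against that of the 3p arm, SB + Dox over SB, for the 71 hairpins with at least 100 reads of each arm in each library, with counting errors as bars and the line of equal ratios. Hairpins above the line, such as miR-23a and miR-292, rose more on the 5p arm, and those below it, such as miR-182 and miR-708, on the 3p arm.

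The miRNAs of the imprinted domain on chromosome 12 are expressed from the maternal chromosome and are linked to the full potency of ES cells. Of 94 listed from the domain 52 were higher after Dox and 10 were lower, 30 and 10 under all 5 scalings, with a median log2 ratio of 0.54, against 237 higher and 114 lower of the 599 miRNAs outside it with a median of 0.33. With listed miRNA reads as library totals the medians were 0.075 in the domain, with 31 higher and 18 lower, and −0.14 outside it. The groups along the domain had like medians, with 0.66 for 12 miRNAs on the Meg3 side, 0.63 for 10 antisense to Rtl1, 0.71 for 5 of Rian and 0.50 for 67 of the cluster on the Mirg side. miR-433-3p of the Rtl1 antisense group had 599 rpm and 1177 rpm. miR-485-3p, within Mirg from 109734902 to 109734974, had 282 rpm and 1504 rpm, whereas its neighbour miR-134-5p, from 109734139 to 109734209, had 458 rpm and 263 rpm. The plot along the domain shows such neighbours of opposite direction, and arms of the same hairpin as well, with 128 rpm and 239 rpm for miR-337-5p and 44.9 rpm and 29.5 rpm for miR-337-3p. Of these miRNAs 38 had under 100 reads in the SB library, which limits their ratios.

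**Figure D5:**
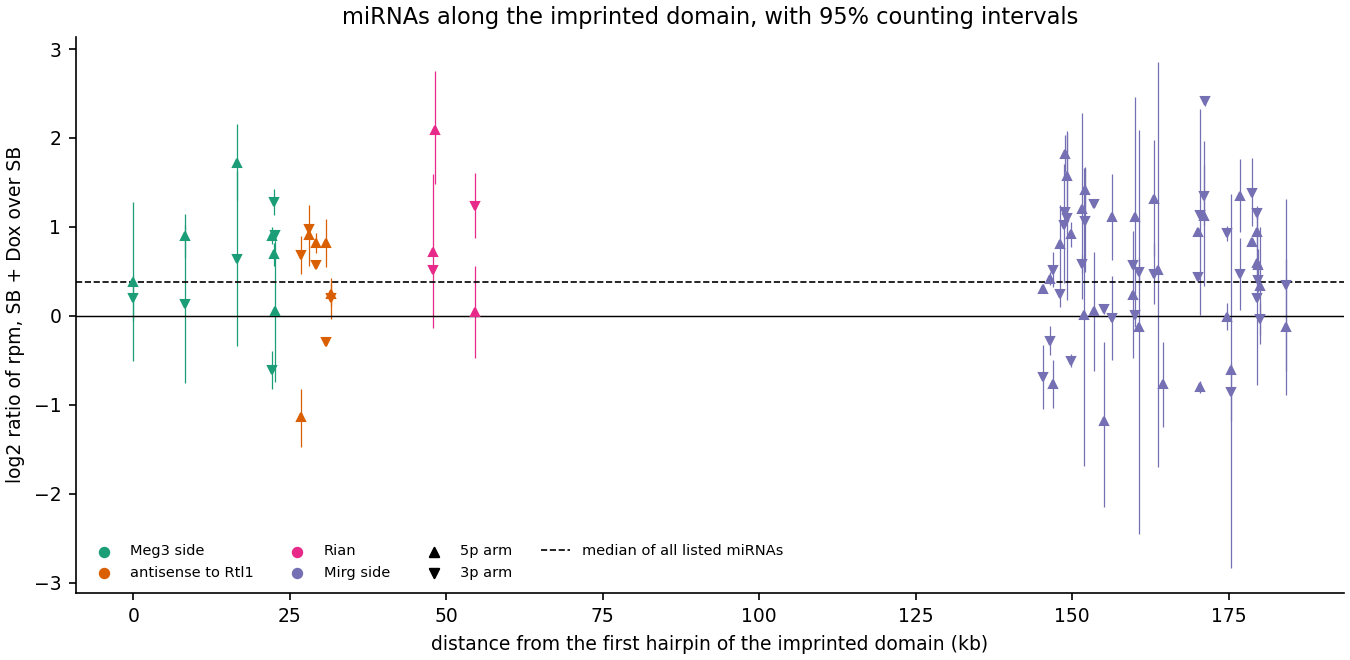
Log2 ratio of rpm, SB + Dox over SB, of the 88 miRNAs of the imprinted domain with a hairpin position, against the distance of the hairpin from the first one of the domain (kb), with 95% counting intervals as bars. Points above and below 0 are mixed along the domain, and 57 of all 94 miRNAs of the domain lie above the median of all listed miRNAs.

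The repeated hairpins of the miR-297/miR-466/miR-467/miR-669 type, most of them from an intron of Sfmbt2, are described by arm. Of 26 listed 5p arms 7 were higher and 2 were lower, a smaller share of higher miRNAs than the 41.7% over all listed, with a median of 0.32 against 0.38. With listed miRNA reads as library totals 4 of these 5p arms were higher and 4 lower, and their median was −0.15. Of 30 listed 3p arms none was higher and 9 were lower, against 17.9% lower over all listed, with a median of −0.47. With listed miRNA reads as library totals 19 of these 3p arms were lower, against 31.5% over all listed, and their median was −0.93. miR-669c-5p, the most abundant, had 1091 rpm and 1985 rpm, and miR-467a-5p was among the exceptions with 162 rpm and 104 rpm. These miRNAs are near-identical copies whose reads the counting could assign to each of several entries, and 48 of the 61 had under 100 reads in the SB library. Over all listed miRNAs the arms differed less, with 144 of 325 5p arms higher and 56 lower and 123 of 306 3p arms higher and 59 lower.

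The letters CAGAC, searched on the RNA strand of the hairpin, are in 7.96% of the 1005 hairpins that RefSeq gives. Of 22 listed miRNAs whose hairpins hold them 9 were higher after Dox and 5 were lower, against 241 and 86 of 521 without them. Those with CAGAC include miR-181d-5p, 4.93-fold higher, miR-21-5p, which met neither criterion in rpm, and miR-199a-3p and miR-214-3p, both lower. A match of the letters is a description and not a binding site. Since sequences were matched for 78.4% of the listed miRNAs, GC content was not described over all of them. Among the 425 with at least 100 reads summed over both libraries 346 had a sequence (81.4%), and Spearman's rho across these miRNAs, which share libraries and are not independent replicates, was 0.28 between the log2 ratio and GC content and −0.078 between the log2 ratio and length.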

How the data were processed

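Per the methods, adaptors were clipped (FASTX), reads over 16 bases were kept, and perfect matches were sought with Bowtie 0.12.7 in mature forms and then hairpins of miRBase release 18. A read that matched several mature miRNAs was given to the one of equal or nearest length, and to each of them on a tie. In hairpins, a read of 1 mature form with several precursors was counted once, and other multiple matches were all kept. Listed miRNAs had 10 or more reads in all. The deposited values are RPM, normalized by the authors to 1000000 reads of each library. One read equals 0.0881 rpm (SB) and 0.101 rpm (SB + Dox), and on these steps all 693 values came out whole within 0.001 read. Log2 ratios had no pseudocount and exact Clopper-Pearson intervals, levels had Poisson intervals. Calls used a fold of 1.25 and a Z-score of 1.96, as the methods do. With 1 library a condition, no count model or test of conditions was made. The scalings were rpm, listed miRNA reads, median of ratios, TMM and quantile. Members, lists and alternatives were chosen with earlier results of these data known. Named miRNAs were the 10 highest and 10 lowest ratios from 100 rpm, the 10 most abundant, list members, both arms of the 8 most unequal hairpins in each direction, and miR-26a-5p. Positions came from RefSeq on GRCm38.p6 and host genes from GENCODE vM21. Scripts were tested on simulated data (Python 3.11.15, scipy 1.17.1).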

Additional observations from a re-analysis of the deposited data

How the results depend on the processing

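No paired analysis was possible because each condition had 1 library and the labels give no replicate numbers, and for the same reason no library could be left out. In rpm 289 of the 693 miRNAs were higher after Dox and 17.9% were lower. Counted anew over all 693, 163 were higher and 218 lower when scaled to listed miRNA reads, 186 and 201 with the median of ratios, and 154 and 67 in rpm with a fold of at least 2. With TMM 28.7% were higher and 193 (27.8%) were lower, so the excess of higher miRNAs was small. The filters on low reads, identical entries counted once, a pseudocount of 1 rpm, a fold of 1.5 and an interval past the fold threshold kept both counts within 1.5 times, as quantile normalization did. The median of 0.38 became −0.090 (listed miRNA reads), 0 (median of ratios), 0.044 (TMM), 0.065 (quantile) and 0.25 (pseudocount). Hairpins with unequal arms numbered 48, with 87 at a minimum of 20 reads and 24 at 500, as more or fewer hairpins qualified.

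List medians that were above 0 in rpm turned negative as follows. With listed miRNA reads, median of ratios and TMM they were −0.27, −0.18 and −0.14 for the miR-302 cluster, −0.14, −0.045 and −0.0014 for the miR-106a cluster, −0.23, −0.14 and −0.094 for the miR-106b cluster, −0.27, −0.18 and −0.14 for miR-21, −0.18, −0.090 and −0.046 for miR-130/miR-301, −0.44, −0.35 and −0.30 for the Sfmbt2-type repeats, and −0.44, −0.35 and −0.30 for the markers of other lineages. Quantile normalization gave −0.23 for the miR-106b cluster, −0.15 for miR-21, −0.22 for the repeats, −0.32 for the other lineages and −0.10 for miR-103/miR-107. Listed miRNA reads alone also gave −0.052 for miR-148/miR-152, −0.0068 for miR-30 and −0.016 for miR-101. Among the 109 named miRNAs 4 called ones reversed, miR-17-5p (−0.070) and miR-219-5p (−0.078) with listed miRNA reads, and miR-103-3p (−0.10) and miR-25-3p (−0.080) with quantile normalization. The medians of let-7, miR-29, miR-199/miR-214, the miR-290 to miR-295 arms, miR-200 and miR-181 kept their sign under every scaling run. Those of let-7, miR-29, miR-199/miR-214 and the miR-290 to miR-295 3p arms were below 0 in rpm, and the other scalings lowered them further. Depth limits the 368 miRNAs with under 100 reads in the SB library.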
